A study of Mus musculus with 31 samples.

Results

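A set of 9 genes that mark layers of the cerebral cortex was followed through mRNA and ribosome footprints of mouse cortex. They were chosen as known markers of upper layers (Cux1, Cux2, Rorb and Rasgrf2) and of deep layers (Fezf2, Bcl11b, Tle4, Foxp2 and Tbr1). The choice was made with earlier results of these data known. They are 9 of the 20436 gene symbols in each count table. Cortex was taken from mice of postnatal day 29 to 34 in 4 genotypes: wild type (WT), Fmr1-deficient mice as a model of fragile X syndrome (FXS), Rps6kb1-deficient mice, Rps6kb1 encoding a kinase of ribosomal protein S6 (group S6K1), and double knockouts of Fmr1 and Rps6kb1 (DKO). The labels give only these genotype names, so the alleles, the strain and whether the deletions reach every cell are not given in the sources used here. The 16 polyA mRNA libraries came in 4 balanced batches, numbered 5 to 8, with 1 library per genotype in each. The 15 footprint libraries, from batches 1 to 4, comprised 4 WT, 5 FXS, 3 S6K1 and 3 DKO samples. Batch 1 held 1 DKO and 1 S6K1 library, batch 2 held no DKO, batch 3 held 1 library per genotype, and batch 4 held no S6K1. The labels do not say what a batch was, whether libraries of a group came from separate mice, or whether footprints and mRNA came from the same mice, so p-values measure only the spread between these libraries.

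The neocortex is built of layers of neurons that differ in birth date, connections and transcription factors. Upper layer neurons, born late, mostly project within the cortex, whereas layer 5 sends axons to the brainstem and spinal cord and layer 6 sends many to the thalamus. Several of the 9 genes are transcription factors that set or maintain these identities and repress those of neighbouring layers. Ribosome profiling sequences the stretches of mRNA protected by ribosomes (footprints), so that footprints relative to mRNA, called translational efficiency (TE), can be compared between genotypes. In whole cortex a lower level can come from fewer cells of a type or from less RNA per cell, and these cannot be told apart.

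Library totals over the genes tested ran from 12.1 to 17.3 (mRNA) and from 16.6 to 34.8 (footprints), in units of 1e6 counts. All 9 genes passed the filter on low counts in both assays, among 14215 genes tested for mRNA, 13953 for footprints and 13654 for TE. The targeted genes followed their labels: Fmr1 mRNA differed from WT by -2.05 on the log2 scale in FXS and -2.15 in DKO, and Rps6kb1 mRNA by -0.47 in S6K1 and -0.50 in DKO. Levels are given as CPM, counts scaled to a library of 1e6 with TMM-adjusted library sizes, and were compared between libraries and not between genes, since gene lengths were not used. A gene was called where edgeR's quasi-likelihood test gave a p under 0.05 after Benjamini-Hochberg adjustment across every gene tested, with batch and genotype as terms. All 26 further markers of upper layers, 17 of layer 5 and 19 of layer 6 had counts, as did markers of excitatory neurons in general, as the labelled tissue should have. The libraries also held striatal markers, summing to between 166 and 905 CPM among footprints and to between 520 and 894 CPM among mRNA libraries.

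Of the deep layer genes, Tle4 and Tbr1 rose in DKO mRNA against WT, and the estimates of the other 3 were also above 0. Tle4 encodes a corepressor of the Groucho family that marks corticothalamic neurons of layer 6, and it lies on chromosome 19 (chr19:14448072-14598183, GRCm38). Its mRNA was at 53.4, 54.5, 55.8 and 49.5 CPM in the WT libraries of batches 5 to 8 and at 76.4, 59.2, 61.8 and 71.4 CPM in the DKO libraries of the same batches. Every DKO library lay above every WT library, and the gap was widest in batches 5 and 8. The fitted difference was 0.34 ± 0.079 on the log2 scale (SE; edgeR adjusted p 0.0169), with within-batch differences from 0.12 to 0.53.

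Tbr1, a T-box transcription factor required for layer 6 identity, lies at chr2:61802863-61814114. Its mRNA was at 72.1, 75.8, 86.4 and 84.0 CPM in WT and at 88.2, 109.9, 103 and 86.9 CPM in DKO. The groups did not overlap, although the lowest DKO library was only just above the highest WT library. The difference was 0.28 ± 0.074 (log2, SE, adjusted p 0.0310, edgeR) and was positive within all 4 batches, from 0.05 to 0.53.

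These were 2 of the 9 genes called higher in DKO mRNA, where 3.17% of all genes were called higher and 5.23% were called in either direction. In addition 3 of the 9 genes, Tle4, Tbr1 and Bcl11b, had every DKO library above every WT library, as did 3.4% of all genes. As the 9 genes were chosen with earlier results of these data known, an excess over these shares is not that of a blind choice. Both calls depended on single libraries. Tle4 lost its call without WT replicate 1 or 2 or DKO replicate 1 or 4 (adjusted p 0.0568 to 0.0723), and Tbr1 lost it without any 1 of the first 3 WT or the first 3 DKO replicates (0.0657 to 0.176). Without batch 5 the adjusted p was 0.107 for Tle4 and 0.0952 for Tbr1, with log2 fold changes of 0.27 for each.

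The other deep layer genes were not called in DKO mRNA. Bcl11b (CTIP2), a zinc finger factor of layer 5 neurons that project out of the cortex, was at 25.0 to 28.5 CPM in WT and at 29.01 to 40.5 CPM in DKO. At an unadjusted p under 0.05 there were 5 genes (Cux2, Rasgrf2, Bcl11b, Tle4 and Tbr1), against 22.3% of all genes. The Bcl11b difference of 0.31 ± 0.103 (SE) had an adjusted p of 0.0772, and DKO was above WT by 0.22 to 0.51 in all 4 batches. Fezf2, the zinc finger factor that specifies corticospinal neurons of layer 5, overlapped between WT (38.2 to 46.4 CPM) and DKO (41.6 to 54.5 CPM), with a difference of 0.21 (0.241). Foxp2, a forkhead factor of layer 6 that is also strongly made in striatal projection neurons, had the fewest counts of the 5, with a difference of 0.14 (0.651). All 5 deep layer genes had a log2 fold change above 0 in DKO mRNA, with a median of 0.28. Over all 14215 genes 49.4% were above 0, and the median was -0.00.

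**Figure D1:**
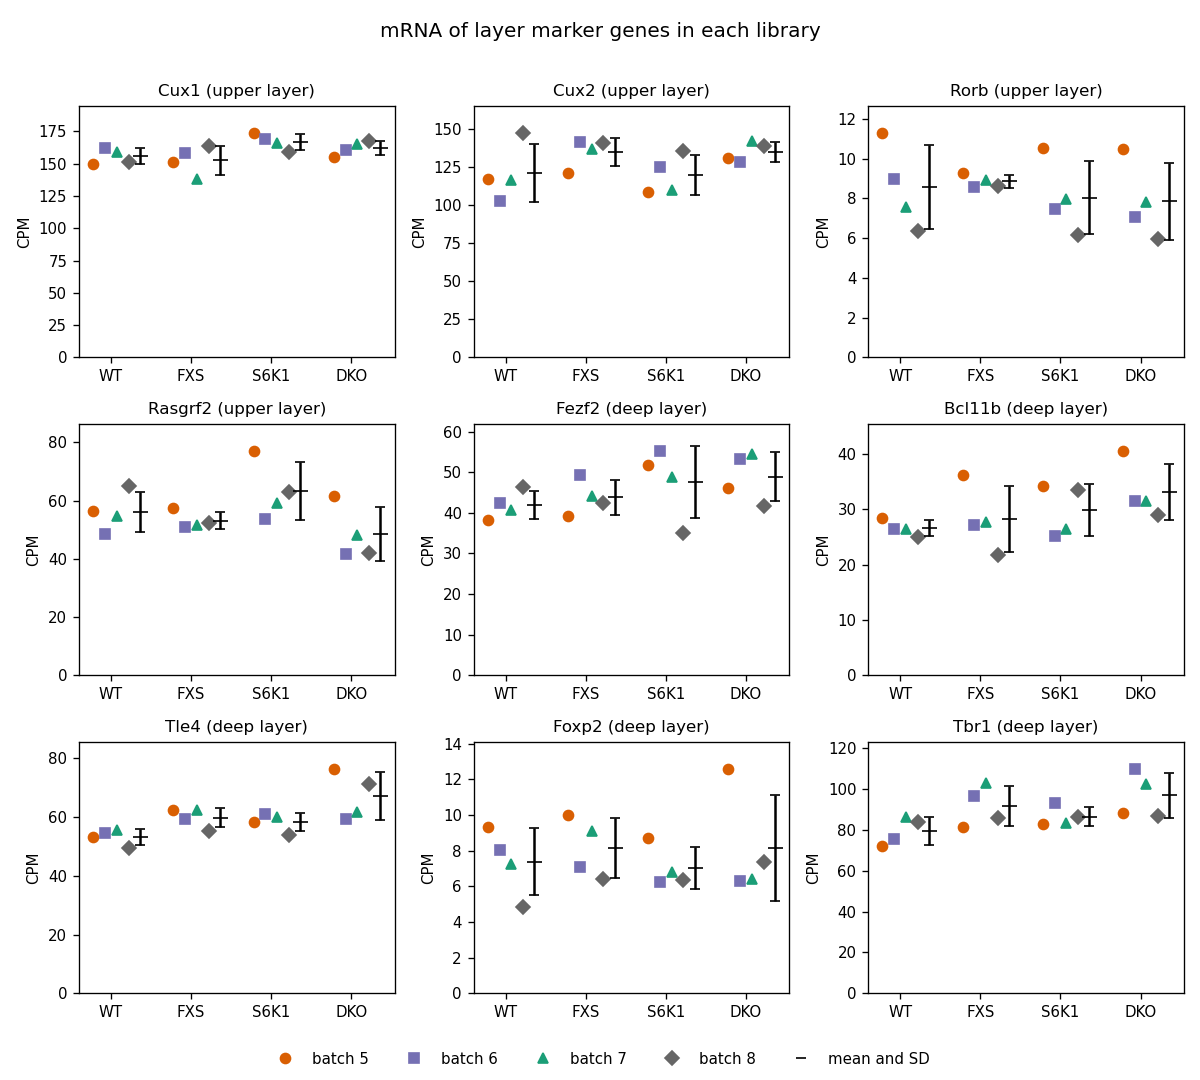
mRNA of the 9 genes in CPM (vertical axes, from 0) for each of the 16 libraries, by genotype; point shapes and colours mark batches 5 to 8, and bars give the mean and SD of 4 libraries. For Tle4, Tbr1 and Bcl11b all DKO points sit above all WT points, while Rorb and Foxp2 are highest in batch 5 in all 4 genotypes.

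The upper layer genes had estimates on both sides of 0. Cux1 and Cux2, homeodomain factors of layers 2 to 4, had WT means of 156 CPM ± 6.01 (SD, n = 4) and 121 ± 18.97, with DKO means of 162 ± 5.69 and 135 ± 6.52, with log2 fold changes of 0.06 (adjusted p 0.636, edgeR) and 0.17 (0.202). Reads assigned to Cux1 can also come from the Golgi protein CASP, which the same locus encodes, and a count per symbol does not separate them. Rorb, a nuclear receptor that marks layer 4, was at 8.56 CPM ± 2.11 in WT and 7.85 ± 1.93 in DKO, a log2 difference of -0.13 (0.635). None of the 4 upper layer genes was called, and their median was -0.03.

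Rasgrf2, a calcium-regulated exchange factor for Ras and Rac that marks layers 2 and 3, had the lowest estimate of the 9 in DKO mRNA. Its mRNA was at 56.5, 48.4, 54.8 and 65.1 CPM in WT, at 77.0, 53.8, 59.2 and 63.0 CPM in S6K1 and at 61.6, 41.7, 48.3 and 42.0 CPM in DKO, in the order of batches 5 to 8. The genotypes overlapped, yet DKO was below S6K1 within every batch, by 0.29 to 0.58 on the log2 scale. The fitted difference between DKO and S6K1 was -0.39 ± 0.089 (SE), and its adjusted p of 0.0504 (edgeR) just missed the threshold. None of the 9 genes was called in that comparison by edgeR, against 0.387% of all genes, while 4 had an unadjusted p under 0.05 (Cux2, Rasgrf2, Tle4 and Tbr1; 14.8% of all genes), DESeq2 called 1 and limma voom 0. Rasgrf2 was called without DKO replicate 1 or without S6K1 replicate 4 (adjusted p 0.0412 and 0.0417). Against WT the DKO level differed by -0.23 (0.137), and by -0.35 without batch 5 (0.0433).

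The bases upstream of 3 of the genes are shown because Tle4 had the highest and Rasgrf2 the lowest estimate of the 9 in DKO mRNA, and because Rorb had the highest ratio of footprints to mRNA. They are the 250 bases before the outermost annotated start, from RefSeq on GRCm38.p6, and all 3 genes lie on the minus strand. The positions are chr19:14598184-14598433 for Tle4, chr13:92131829-92132078 for Rasgrf2 and chr19:19111197-19111446 for Rorb. Capitals mark matches, on either strand, to 6 motifs: CACGTG (E-box), TGACTCA (AP-1), TGACGTCA (CRE), CCAAT (the box bound by NF-Y), TATAAA (the core promoter box) and GGGCGG (GC box), none of which contains another.
Tle4: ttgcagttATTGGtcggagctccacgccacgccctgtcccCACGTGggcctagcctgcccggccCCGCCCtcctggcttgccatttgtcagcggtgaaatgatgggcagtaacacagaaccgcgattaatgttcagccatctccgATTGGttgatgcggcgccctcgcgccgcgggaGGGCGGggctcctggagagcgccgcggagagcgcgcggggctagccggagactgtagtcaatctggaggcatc
Rasgrf2: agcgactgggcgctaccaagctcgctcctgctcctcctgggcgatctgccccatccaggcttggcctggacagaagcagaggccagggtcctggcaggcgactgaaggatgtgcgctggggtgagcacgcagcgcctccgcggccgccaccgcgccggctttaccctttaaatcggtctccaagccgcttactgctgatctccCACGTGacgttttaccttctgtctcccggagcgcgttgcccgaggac
Rorb: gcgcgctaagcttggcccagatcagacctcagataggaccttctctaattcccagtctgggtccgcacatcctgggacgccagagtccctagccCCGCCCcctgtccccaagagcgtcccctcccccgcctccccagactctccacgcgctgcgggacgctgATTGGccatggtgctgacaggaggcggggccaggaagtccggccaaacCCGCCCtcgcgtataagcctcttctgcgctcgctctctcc
Tle4 and Rasgrf2 each held 1 E-box, which 6.02% of 32851 promoter windows held. Tle4 also held 2 CCAAT and 2 GC boxes, and Rorb held 1 CCAAT and 2 GC boxes, which 33.8% and 32.7% of windows held at least once. AP-1, CRE and TATA box matches were in none of the 3 windows, and 4.46%, 1.55% and 12.4% of windows held them. All 3 windows were rich in GC (65.2, 65.2 and 66.0%) and CG dinucleotides (24, 22 and 18), against medians of 52.4% and 6 over all windows. A match is a run of letters and was not tested for binding. The tables gave such a window for these 3 genes.

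Wider marker lists were chosen with earlier results of these data known. Of 19 further layer 6 markers, 5 were called higher in DKO mRNA and none lower, where 3.17% of all genes were called higher, with a list median of 0.27 against -0.00 over all genes. They were Grik3, a kainate receptor subunit (0.61 ± 0.108 log2, SE, adjusted p 0.00444, edgeR), Cplx3, a complexin of subplate neurons (0.57, 0.00790), Nxph3, a neurexin ligand (0.42, 0.0132), Ctgf, a secreted matricellular protein of layer 6b (0.44, 0.0303), and Rprm (0.35, 0.0471), the last named after its values were seen. Grik3 mRNA went from a WT mean of 18.7 CPM ± 1.94 (SD, n = 4) to 28.8 ± 6.10 in DKO, and Cplx3 averaged 17.2 ± 1.54 and 25.4 ± 2.21. The summed level of the list was 398 to 432 CPM in WT and 474 to 510 CPM in DKO. Those sums did not overlap. Of single genes 3.4% did not overlap in that direction, which is not a matched background for a sum over 19 markers. None of 17 layer 5 markers was called (median 0.05). Of 26 upper layer markers 3 were called, all higher (median 0.03), among them Mef2c, a MADS box transcription factor (0.35), and Plxnd1, a semaphorin receptor (0.36). DESeq2 called 3 upper layer markers higher and 3 lower, and edgeR on only WT and DKO called 3 higher and 1 lower, so the single direction did not hold there. Without batch 5, 3 of the layer 6 markers and 1 of the upper layer markers were called, and without WT replicate 2 the counts were 1 and 0.

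The other marker lists given here had at most 1 call each in DKO mRNA, where 5.23% of all genes were called in either direction. Lists this short cannot be set apart from that share. Interneuron, astrocyte, microglial, hippocampal and choroid plexus lists are not described for this comparison. Markers of excitatory neurons in general had 1 of 9 called, higher (median 0.14). With batches pooled, their sums overlapped between WT (3401 to 4645 CPM) and DKO (3620 to 5302 CPM). Those sums averaged 3967 CPM in WT and 4727 CPM in DKO, while the sums of the layer 6 list averaged 413 and 489 CPM. The general sums also differed by batch, averaging 3483 CPM in batch 5 and 4550 to 4680 CPM in batches 6 to 8. The pooled overlap therefore does not set the general markers apart from the layer 6 list. None of 14 striatal markers was called (median -0.12), none of 10 oligodendrocyte markers (0.06) and none of 7 endothelial markers (-0.34, all 7 below 0). Of 7 thalamic markers 1 was called lower (median -0.57, all 7 below 0), and none of 8 immediate early genes was called (-0.37, all 8 below 0). Their part in the layer gene differences was not tested.

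Footprints of the 9 genes gave no call for any pair of genotypes. In DKO against WT edgeR, DESeq2 and limma voom each called 0 of 9, against 0.366% of all genes by edgeR, and 2 genes (Rorb and Fezf2) had an unadjusted p under 0.05, as did 17.1% of all genes. The deep layer genes had a median of -0.16 and the upper layer genes -0.10, against -0.01 over all genes. Tle4 footprints were at 97.3, 80.4, 83.1 and 82.2 CPM in WT, from batches 2, 3, 4 and 4, and at 101, 75.8 and 70.4 CPM in DKO, from batches 1, 3 and 4. The highest library of each genotype came from a batch that lacked the other, so the fit compared these genotypes mainly within batches 3 and 4. Tle4 differed there by -0.08 and -0.23, and the fitted difference was -0.16 ± 0.104 (SE, adjusted p 0.436, edgeR).

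Tbr1 footprints lay lower in each mutant than in WT, without a call. They were at 268, 301, 310.3 and 356 CPM in WT, at 209 to 295 CPM in 5 FXS libraries (median 269), at 206, 224 and 246 CPM in S6K1 and at 213, 208 and 321 CPM in DKO. All 3 S6K1 libraries lay below all 4 WT libraries, which made Tbr1 the single gene of the 9 without overlap in that comparison, where 6.41% of all genes were lower without overlap. The DKO library at 321 CPM, from batch 4, lay within the WT range. The log2 fold changes against WT were -0.27 ± 0.091 (FXS, adjusted p 0.322, edgeR), -0.24 ± 0.114 (S6K1, 0.588) and -0.23 ± 0.111 (DKO, 0.302), 3 comparisons that share the WT libraries. In FXS against WT 0 of 9 were called by edgeR, DESeq2 and voom, with 1 gene (Tbr1) at an unadjusted p under 0.05 (9.87% of all genes), and 0.165% of all genes were called.

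Of the upper layer genes, Rorb came nearest to a difference in footprints. It was at 68.1 to 76.0 CPM in WT, at 84.9, 46.1 and 60.8 CPM in S6K1 and at 89.2, 62.4 and 68.1 CPM in DKO. The highest S6K1 and DKO values were the 2 libraries of batch 1, and the other libraries of both genotypes lay at or below the WT range. The difference from WT was -0.39 ± 0.110 in S6K1 (SE, adjusted p 0.319, edgeR) and -0.24 ± 0.105 in DKO (0.261). In S6K1 against WT edgeR, DESeq2 and voom called 0 of 9, with 2 genes (Rorb and Tle4) at an unadjusted p under 0.05 (8.74% of all genes) and 0.00717% of all genes called.

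**Figure D2:**
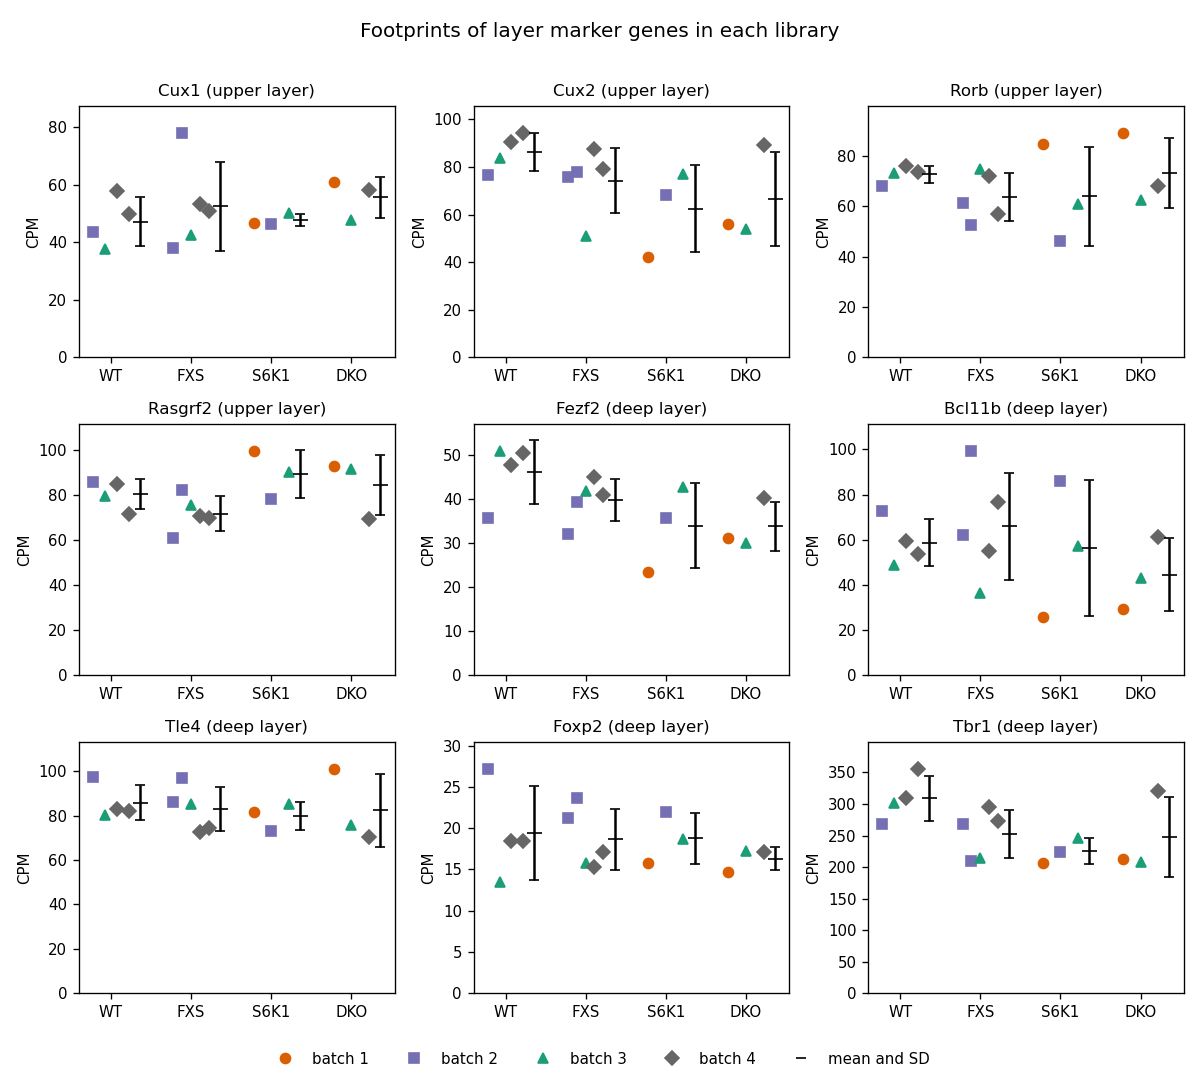
Footprints of the 9 genes in CPM (vertical axes, from 0) for each of the 15 libraries, by genotype; point shapes and colours mark batches 1 to 4, and bars give the mean and SD of 3 to 5 libraries. All S6K1 points of Tbr1 lie below all WT points, and Bcl11b is lowest in the 2 libraries of batch 1 and highest in batch 2.

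TE of Tle4 and Tbr1 fell in DKO against WT. All 5 deep layer genes had TE estimates below 0, as did Cux2 and Rorb of the upper layer genes. Tbr1 TE differed by -0.51 ± 0.133 (log2, SE, adjusted p 0.0320, edgeR) and Tle4 TE by -0.50 ± 0.131 (0.0333), and both were called lower. Fezf2 had the lowest estimate, -0.54 ± 0.184, with an adjusted p of 0.0773. Bcl11b (-0.22) and Foxp2 (-0.16) were below 0 without a call. Thus 2 of 9 genes were called lower, where 3% of all genes were called lower and 4.85% in either direction, and 3 (Fezf2 as well) had an unadjusted p under 0.05, against 24.9% of all genes. The deep layer median was -0.50 and the upper layer median 0.03, against -0.02 over all genes. That upper layer median lay between Cux2 (-0.33) and Rorb (-0.12) below it and Cux1 (0.22) and Rasgrf2 (0.18) above it. Cux2 was thus lower than Bcl11b and Foxp2. TE uses the same mRNA values as the mRNA comparison, so the calls for Tle4 and Tbr1 are not separate evidence of it.

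Single libraries also carried the TE calls. The highest adjusted p came without DKO footprint replicate 2, at 0.177 for Tle4 and 0.189 for Tbr1. Tle4 was no longer called without any 1 of 8 of the 15 libraries (WT footprint replicate 2, DKO footprint replicates 2 and 3, WT mRNA replicates 1, 2 and 3, and DKO mRNA replicates 1 and 4). Tbr1 was no longer called without any 1 of 6 (WT and DKO footprint replicate 2, and replicates 2 and 3 of WT and DKO mRNA). Among the wider lists, 6 of 19 layer 6 markers were called lower in TE, with a list median of -0.34. Those of smallest adjusted p were Cplx3 (-0.96), Grik3 (-0.78), Nxph3 (-0.88) and Ctgf (-0.99), and these 4 genes were also called higher in mRNA. Their footprints were not called, with log2 fold changes of -0.39, -0.17, -0.46 and -0.54. Here too TE uses the same mRNA values, so a higher mRNA estimate lowers TE, and the 2 sets of calls are not separate evidence. None of 17 layer 5 markers was called in TE (median -0.21), but 3 were called lower without DKO footprint replicate 1, 3 without WT footprint replicate 1, and 1 with DESeq2. Of the upper layer markers Kitl was called higher (0.77) and Mef2c (-0.51) and Plxnd1 (-0.60) lower (median -0.24). Without WT footprint replicate 2, or without DKO footprint replicate 2, no marker of the 3 lists was called. General excitatory neuron markers had 1 of 9 and oligodendrocyte markers 7 of 10 called lower in TE, with medians of -0.43 and -0.74, and their part was not tested.

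**Figure D3:**
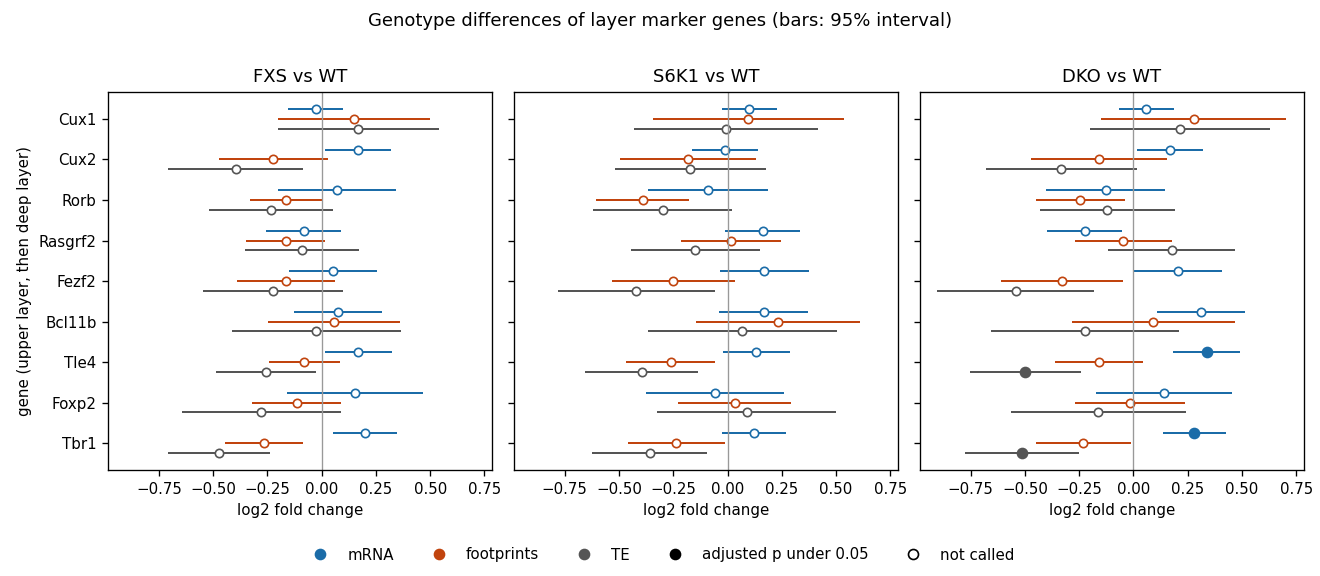
Log2 fold changes (horizontal axes) of the 9 genes in FXS, S6K1 and DKO against WT for mRNA, footprints and TE. Bars are approximate 95% intervals, and filled points mark calls at an adjusted p under 0.05. The bars use a normal approximation and can exclude 0 where the test does not pass, as for Fezf2 mRNA in DKO (unadjusted p 0.0571, edgeR). The filled points are Tle4 and Tbr1 in DKO, right of 0 for mRNA (0.34 and 0.28) and left of 0 for TE (-0.50 and -0.51).

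In the single mutants no gene was called, and the mean mRNA of every deep layer gene but Foxp2 lay between those of WT and DKO. Tle4 mRNA averaged 59.9 CPM ± 3.37 (SD, n = 4) in FXS and 58.4 ± 3.14 in S6K1, between 53.3 ± 2.73 in WT and 67.2 ± 8.07 in DKO. FXS and S6K1 overlapped widely in that order, and each was above WT within all 4 batches, by 0.12 to 0.22 and by 0.11 to 0.17 on the log2 scale. Tbr1 mRNA had means of 79.6 CPM ± 6.73 (WT), 86.4 ± 4.73 (S6K1), 91.6 ± 9.90 (FXS) and 96.9 ± 11.2 (DKO), and neighbours in this order overlapped. Against WT the differences of Tle4 were 0.17 in FXS (adjusted p 0.378, edgeR) and 0.13 in S6K1 (0.733), and those of Tbr1 were 0.20 (0.269) and 0.12 (0.748).

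No gene of the 9 was called in mRNA of FXS or S6K1 against WT, where 0.155% and 0.0211% of all genes were called by edgeR. At an unadjusted p under 0.05 there were 3 (Cux2, Tle4 and Tbr1) and 0, against 12.7% and 7.37% of all genes, and DESeq2 and voom called 0 in both. DKO against FXS gave 0 calls with all 3 tools, 2 unadjusted (Bcl11b and Tle4, against 9.81% of all genes) and a background of 0.0281%. The interaction, the effect of losing Fmr1 in S6K1-deficient mice minus that in S6K1-sufficient mice, was 0.04 ± 0.111 for Tle4 and -0.04 ± 0.105 for Tbr1 in mRNA. Their approximate 95% intervals, -0.18 to 0.25 and -0.25 to 0.16, reach effects about as large as those of the single mutants. Rasgrf2 had the lowest estimate (-0.30 ± 0.125, unadjusted p 0.0231), and no gene of the 9, and 0% of all genes, was called by edgeR. In that test 1 of the 9 had an unadjusted p under 0.05, as did 3.5% of all genes, and DESeq2 and voom called 0.

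TE in the single mutants gave no edgeR call either. Tbr1 had the lowest adjusted p in FXS, with -0.47 ± 0.120 (adjusted p 0.120), and DESeq2 called it (0.0190). At that level 3 genes (Cux2, Tle4 and Tbr1) had an unadjusted p under 0.05 there (13.4% of all genes), voom called 0, and 0.0952% of all genes were called. Against S6K1 the footprints and TE of DKO gave 0 calls with all 3 tools, with 0 and 1 (Rasgrf2) at an unadjusted p under 0.05 (8.67% and 14.6% of all genes) and backgrounds of 0.00717% and 0.00732%. Against FXS they gave 0 calls with all 3 tools and 0 unadjusted (6.19% and 8.36% of all genes), with backgrounds of 0.0143% and 0.0146%. For S6K1 against WT the TE of 3 genes (Fezf2, Tle4 and Tbr1) had an unadjusted p under 0.05 (7.51% of all genes), 0 were called by all 3 tools, and 0.0293% of all genes were called. The footprint and TE interactions gave 0 calls with all 3 tools, 1 unadjusted each (Rorb and Rasgrf2, against 3.07% and 4.14% of all genes), and a background of 0%.

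The balance of upper over deep genes summarised these shifts as a difference of mean log2 CPM between the 4 upper and 5 deep genes. The mRNA means were 0.76 ± 0.105 (WT, SD, n = 4), 0.70 ± 0.046 (S6K1), 0.67 ± 0.147 (FXS) and 0.48 ± 0.055 (DKO). The DKO libraries (0.43 to 0.56) lay below all WT libraries (0.67 to 0.89) and all S6K1 libraries (0.64 to 0.74). The FXS libraries (0.55 to 0.88) overlapped each of these groups. Within the upper genes, the DKO mRNA estimates against WT were above 0 for Cux1 and Cux2 and below 0 for Rorb and Rasgrf2. The footprint means were 0.06 (WT), 0.04 (FXS), 0.17 (S6K1) and 0.34 (DKO), and batches differed: the 2 libraries of batch 1 were at 0.54 and 0.57 and the 4 of batch 2 at -0.15 to 0.00. These values describe the same 9 genes as above, so they are not separate evidence, and they come with no test and no share over all genes.

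Footprints relative to mRNA differed widely among the 9 genes. In WT, Rorb had 72.8 CPM of footprints and 8.56 CPM of mRNA, a ratio of 8.50 that ranked 30th of 13654 genes, whose median ratio was 0.785. Its mRNA rested on 88 to 165 counts per WT library. Tbr1 followed with 3.88 (98.3rd percentile), then Foxp2 with 2.63 (95.03rd), Bcl11b with 2.21 (92.2nd), Tle4 with 1.61, Rasgrf2 with 1.43 and Fezf2 with 1.10. Cux2 (0.714) and Cux1 (0.303, the 13.5th percentile) lay below the median of all genes. The ratio of Rorb stayed the highest of the 9 in FXS (7.18), S6K1 (7.95) and DKO (9.34), and that of Cux1 the lowest. Tbr1 was at 3.88 in WT and between 2.55 and 2.75 in the mutants, and Cux2 at 0.714 in WT and between 0.492 and 0.551 in the mutants. How far the 2 library types recover each transcript differently was not tested, so the ratio is a description of the pair of assays.

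**Figure D4:**
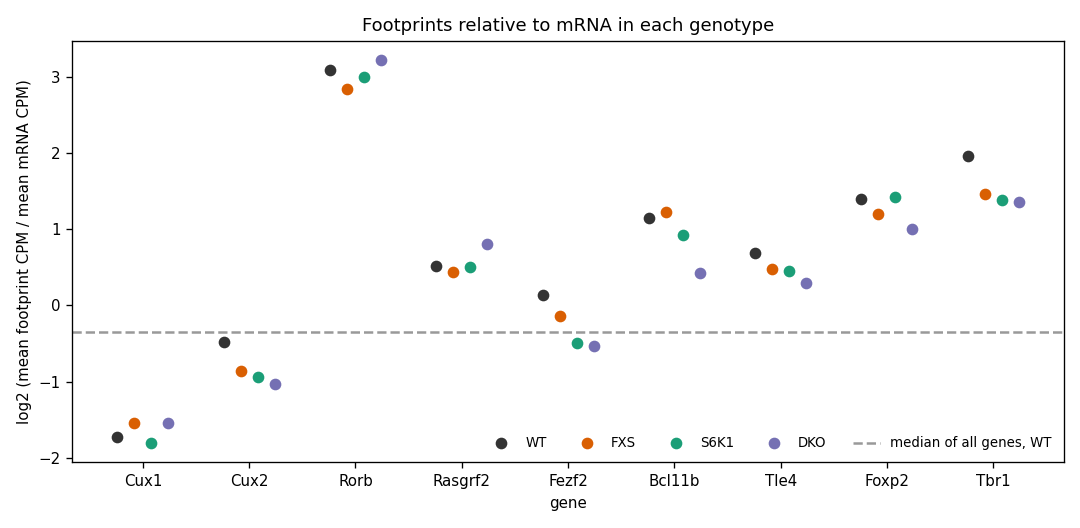
Log2 ratio of mean footprint CPM to mean mRNA CPM (vertical axis) for the 9 genes (horizontal axis) in each genotype; the dashed line is the WT median of all genes, -0.35. Rorb is highest (3.09 in WT) and Cux1 lowest (-1.72) in all 4 genotypes, and Tbr1, Tle4, Fezf2 and Cux2 are highest in WT.

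The 9 genes also differed between mRNA batches, at rates near those of all genes. Over all batches 4 of 9 were called (Rorb, Rasgrf2, Bcl11b and Foxp2), against 40.5% of all genes, and in batch 5 against batches 6 to 8 it was 5 of 9, against 46.3%. Foxp2 was higher in batch 5 by 0.56 ± 0.124 (log2, SE, adjusted p 0.000599, edgeR), Rorb by 0.46 (0.00139), Bcl11b by 0.33 (0.00169) and Rasgrf2 by 0.27 (0.00325), while Tbr1 was lower by 0.17 (0.0265). Higher calls covered 21.9% of all genes and lower calls 24.4%. Rorb averaged 10.4 CPM ± 0.845 (SD, n = 4) in batch 5 and 8.04, 8.08 and 6.78 CPM in batches 6, 7 and 8. All its batch 5 libraries lay above all others, as for 6.51% of all genes. Tle4, Fezf2, Cux1 and Cux2 were not called, and Tle4 averaged 62.6 CPM in batch 5 against 57.6 to 60.02 CPM in the others.

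In the same batch 5 the wider lists moved in both directions. Of the upper layer markers 4 were higher and 13 lower, among them Matn2 (-0.92), Wfs1 (-0.90), Lamp5 (-0.85) and Plxnd1 (-0.61). Of the layer 5 markers 4 were higher and 4 lower, and of the layer 6 markers 2 and 7. Of all genes 21.9% were called higher and 24.4% lower, and 46.3% in either direction. The calls were 17 of 26 upper layer, 8 of 17 layer 5 and 9 of 19 layer 6 markers. The layer 5 and layer 6 counts were thus near the share of all genes. All 8 microglial markers were lower (median -1.58), summing to 177 to 232 CPM in batch 5 and 623 to 750.2 CPM in the other batches. All 7 endothelial markers were lower too (-1.52), as were 7 of 8 astrocyte markers (-0.69). Each batch held every genotype once, so these differences do not separate the genotypes. Without DKO replicate 1 the count of called members in batch 5 was 3 and that over all batches was 1.

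Footprint levels differed between batches for most of the 9 genes. Here 7 of 9 genes were called over the 4 footprint batches, all but Cux1 and Rasgrf2, against 53.9% of all genes. Bcl11b ranged most, at 27.6 CPM ± 2.33 (SD, n = 2) in batch 1, 80.1 ± 16.2 (n = 4) in batch 2, 46.5 ± 8.89 (n = 4) in batch 3 and 61.3 ± 9.13 (n = 5) in batch 4 (adjusted p 0.000986, edgeR). Cux2 averaged 49.1, 74.7, 66.6 and 88.2 CPM in batches 1 to 4, and Tbr1 209.7, 242, 242 and 311 CPM, both lowest in batch 1 and highest in batch 4. Rorb ran against Bcl11b, with 87.1 CPM in batch 1 and 57.0 CPM in batch 2. Foxp2 was highest in batch 2, at 23.5 CPM against 15.2 to 17.3 CPM elsewhere. The count fell to 3 without DKO footprint replicate 3, and Tle4 and Fezf2 lost their calls without any 1 of 7 and 6 libraries.

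Across the footprint libraries striatal markers moved with 3 of these genes, a relation that did not pass the test within batches. The summed footprints of 14 striatal markers (Drd1a, Drd2, Adora2a, Penk and others, of which Tac1 also marks interneurons) averaged 229 CPM in batch 1, 764 in batch 2, 311 in batch 3 and 395 in batch 4. Across the 15 libraries Foxp2 rose with that sum, with Pearson's r of 0.91 (permutation p 1e-05, the smallest that 100000 permutations can give) and Spearman's rho of 0.92 (2e-05). For Bcl11b r was 0.78 (0.00055) and rho 0.85 (9e-05), and for Rorb r was -0.75 (0.00159) and rho -0.74 (0.00218). These were 3 of 18 relations examined, 9 genes in 2 assays, and their Benjamini-Hochberg adjusted p for r was 0.00018, 0.00495 and 0.00954. These p-values treat the 15 libraries as exchangeable and ignore that both measures differ between batches. The relation was also examined after seeing the data, and the adjustment over 18 relations does not cover that choice. Foxp2 and Bcl11b are both known in striatal projection neurons, and Rorb marks layer 4. Whether this bears on the signs of r was not tested.

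Without the 2 libraries farthest from the median sum, r was 0.89 for Foxp2, 0.73 for Bcl11b and -0.80 for Rorb, and without the 4 libraries of batch 2 it was 0.82, 0.71 and -0.73. With batch means subtracted and libraries permuted only within batches, r was 0.67 for Foxp2 (permutation p 0.0215, adjusted 0.387 over the 18 relations), 0.27 for Bcl11b (0.419, adjusted 0.789) and -0.44 for Rorb (0.0941, adjusted 0.549). No relation passed after that adjustment, so batch and the striatal sum cannot be told apart here. No batch held more than 5 libraries, too few for a value within each. The other 6 genes had r between -0.25 and 0.34 in footprints. In mRNA the r of Foxp2 was 0.15, of Bcl11b 0.19 and of Rorb 0.23, none below an adjusted p of 0.265 among the 9 genes. The difference between assays was not tested. By genotype, all 14 striatal markers had a footprint log2 fold change above 0 in S6K1 against WT (median 0.61, 0 called by edgeR). These markers share the libraries, so they are not 14 separate observations. Only batches 2 and 3 held both genotypes. The striatal sum was 905 CPM in WT and 853 CPM in S6K1 in batch 2, and 207 and 469 CPM in batch 3. Of these batches, only batch 3 had the higher sum in S6K1. In S6K1 against WT, Foxp2 footprints were at 0.03, Bcl11b at 0.23 and Rorb at -0.39. All 9 hippocampal markers were below 0 there (median -1.04, 0 called), and how far either tissue's share bears on the layer genes was not tested.

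**Figure D5:**
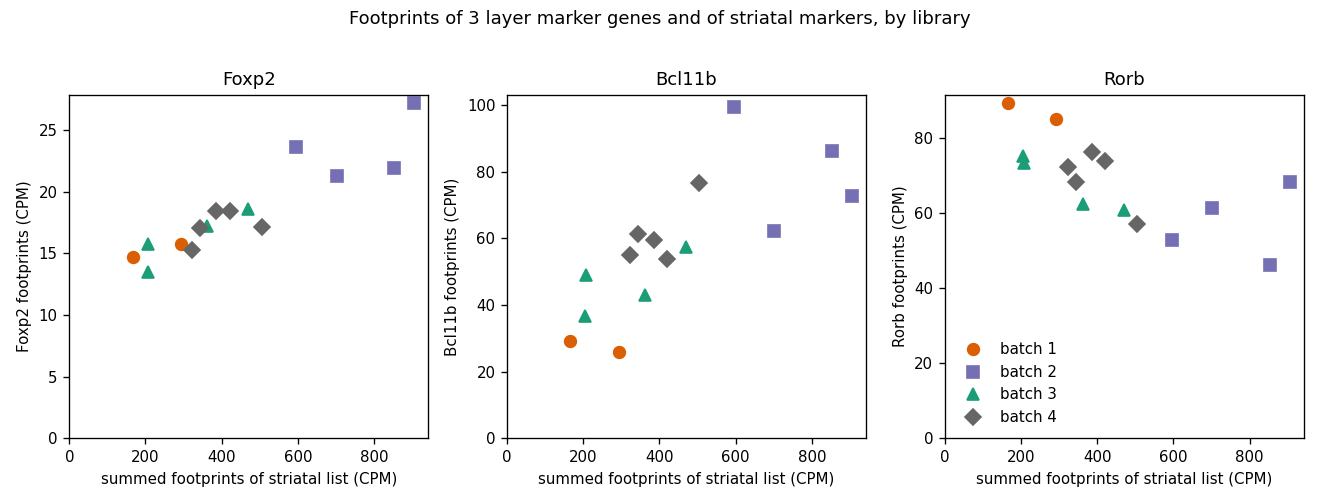
Footprints of Foxp2, Bcl11b and Rorb (vertical axes, CPM) against the summed footprints of 14 striatal markers (horizontal axes, CPM) in each of the 15 libraries, with shapes and colours for batches 1 to 4. Foxp2 and Bcl11b are highest on average in batch 2 (sums of 596 to 905 CPM), and Rorb is highest in batch 1 (sums of 166 and 292 CPM).

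Correlations among the 9 genes differed between assays and with the handling of batch. After batch means were subtracted from the log2 CPM of the 16 mRNA libraries, 9 of 10 pairs of deep genes had a correlation above 0 (median 0.36), against 2 of 6 pairs of upper genes (median -0.10) and 10 of 20 mixed pairs (median -0.04). Without that subtraction 7 of 10 deep pairs were above 0 (median 0.26). In footprints with batch means subtracted 7 of 10 deep pairs were above 0 (median 0.17), below the mixed pairs, of which 15 of 20 were (median 0.33). All pairs share the libraries and part of the genotype differences, so these are descriptions. Likeness was the highest r among 14206 other genes over the 16 mRNA libraries. A search that wide gives high values by itself, and none was tested. The gene most like Tbr1 over these libraries was Taok2 (r = 0.94), and most like Tle4 was Cox15 (0.88). Most like Bcl11b was Cnnm1 (0.88) and most like Fezf2 was Gadd45gip1 (0.95). For Rasgrf2 it was Diap1 (0.95), for Cux2 Unc5a (0.92), for Cux1 Lsm6 (0.90), for Foxp2 Klhl11 (0.89) and for Rorb Specc1l (0.88). In the 15 footprint libraries the same pairs had r of 0.13, 0.34, 0.23, 0.49, 0.18, 0.75, -0.18, 0.64 and -0.27 in that order, so that Cux2 with Unc5a and Foxp2 with Klhl11 had the highest footprint values of these pairs.

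The authors' deposited tables gave the same 2 genes in mRNA. In the authors' deposited table of DKO against WT mRNA, Tle4 had a log2 fold change of 0.33 (adjusted p 0.00554) and Tbr1 of 0.27 (0.0126), and no other member of the 9 was under 0.05. In the authors' deposited table of TE for DKO, Tle4 was at -0.49 (0.0765) and Tbr1 at -0.50 (0.0821), so neither was under 0.05 there. The authors' deposited tables for footprints, and all 3 for FXS, held 0 of the 9 under 0.05. In the authors' deposited table of FXS mRNA, 2 of the 9 (Rorb and Foxp2) had no adjusted p, so that count rests on the others.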

How the data were processed

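The authors deposited raw counts per gene symbol for footprint and mRNA libraries, described as counts over coding sequence. The submitters' processing notes name cutadapt 2.0, Bowtie2, TopHat2, RSEM and mm10, with no role or order. The authors' 6 deposited comparison tables give, per the file headers, a mean normalized signal, log2 fold changes with SE, a test score, and p-values; their tool is not given in the sources used here.

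Counts were tested with edgeR 4.0.16 (robust quasi-likelihood F-test, filterByExpr on genotype, TMM within assay) in R 4.3.3, with batch and all genotypes in 1 model per assay. TE was tested as footprint minus mRNA contrast in a joint fit of the 31 libraries whose batch terms were separate for each assay. SE was derived from F, and intervals used a normal approximation to it, which is narrower than the test. Log2 CPM used a prior count of 2. Alternatives used DESeq2 1.42.0, limma voom 3.58.1, RLE factors, no filter, no batch term, only the genotypes compared, no batch 5, and leaving out each library. The pipeline was tested on simulated data.

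The members and lists were chosen with earlier results of these data known, and the relation to striatal markers was examined after seeing the data, as was its test within batches. Named markers were up to 4 called genes of smallest adjusted p per list and measure (1 of them is not reported here), and likeness was the highest Pearson correlation with batch means subtracted. Batch pairs mRNA libraries: of 24 same-batch pairs of genotypes, 21 had deviations correlated above 0.1 (median 0.22, against -0.12 over 72 other pairs), so batch stayed in the model. No replicate pair agreed within counting noise (smallest chi-square per degree of freedom 4.31 for mRNA and 6.99 for footprints). Promoter windows and gene positions come from RefSeq on GRCm38.p6, the assembly named mm10.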

Additional observations from a re-analysis of the deposited data

Results flagged for a closer look

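Of 54 groups of 4 or 5 libraries checked (9 genes in each genotype group that large), 1 held a library apart from the rest, where chance gives about 5% of groups. The footprint level of Tle4 in WT replicate 1, from batch 2, was 97.3 CPM, while the other 3 WT libraries lay between 80.4 and 83.1 CPM.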

How the results depend on the processing

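Of the values of single genes under the alternatives, 3439 kept their side of the threshold, 64 lost a call and 19 gained one, and no called value changed direction. In DKO against WT mRNA the count of called genes (2) was 0 without the batch term as replicate block, 1 with only those genotypes in the fit and 1 (Rasgrf2) without batch 5, and ran from 0 to 3 when libraries were left out in turn. For DKO against S6K1 mRNA (0) it was 1 with RLE factors, 1 without the filter and 1 with DESeq2, each time Rasgrf2, and 0 to 1 over left-out libraries. For TE in DKO against WT (2) it was 0 without the batch term, 0 with only those genotypes and 0 without batch 5, and 0 to 3 over left-out libraries. For TE in FXS against WT (0) DESeq2 gave 1, Tbr1. Over all mRNA batches (4) it was 2 without the genotype term. Leaving out libraries in turn gave 1 to 6 for that count, 3 to 6 for batch 5 (5) and 3 to 7 over all footprint batches (7). Without the block, Tle4 had an adjusted p of 0.239 and Tbr1 of 0.333 in DKO mRNA, with differences of 0.34 and 0.28 (log2). Over 15 alternatives the adjusted p of Tle4 there ran from 0.00428 to 0.239 and that of Tbr1 from 0.0102 to 0.333. Of the layer 6 markers, DKO mRNA gave 5 calls, 0 without the batch term and 3 without batch 5, and TE gave 6, 0 and 4. The scalings moved the median of all genes by at most 0.02 (log2).

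Footprint batches were unbalanced and held 3 DKO and 3 S6K1 libraries, and SEs of the 9 genes' footprint differences in DKO against WT ran from 0.104 to 0.217 (log2). Rorb and Foxp2 had the fewest mRNA counts (67 to 207 per library), so their mRNA intervals were the widest of the 9.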
